A study of Mus musculus with 10 samples.

Results

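Retinoic acid, the active form of vitamin A, is made and destroyed inside the testis, where it drives the differentiation of spermatogonia and the entry of germ cells into meiosis. Retinol enters cells through the receptor STRA6 and is stored as esters made by LRAT. RDH10 oxidises retinol to retinal, DHRS3 and RDH11 reduce retinal back to retinol, ALDH1A enzymes oxidise retinal to retinoic acid, and CYP26 enzymes break retinoic acid down. The 10 genes described are Stra6, Lrat, Rdh10, Rdh11, Dhrs3, Aldh1a1, Aldh1a2, Aldh1a3, Cyp26a1 and Cyp26b1. They were chosen by name, with earlier results of these data known, and each was found once by its symbol among the 36806 genes of every table.

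The study set Ago4-/- mice beside Ago4+/+ littermates, all of the C57BL/6 strain. Ago4 encodes an Argonaute protein, which binds small RNAs. Messenger RNA came from pachytene cells and leptotene/zygotene cells at 70 days of age, and from the whole testis at 3 days and at 8 days. Each genotype and stage had 1 library, 8 in all. The labels do not say how the cells were isolated, how many mice went into a library or which part of Ago4 was deleted, and 2 small RNA libraries were not analysed here.

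The authors deposited 4 comparison tables, named for day 3, pre-meiotic, leptotene/zygotene and pachytene material. The age behind the pre-meiotic table is not stated. Each table calls its conditions only first and second. No source used here says which of them is Ago4-/-, or that the order is the same in every table. A fold is therefore the second condition over the first within 1 table and says nothing of genotype. The tables also hold a level for each condition, which could be matched to no library and was not used, so no expression level is given. Those unmatched levels were seen before they were set aside, and the leptotene/zygotene table appeared to hold much spermatid transcript. That impression rests on no value given here and was not tested. The identity of the cells labelled leptotene/zygotene could not be checked from folds between the conditions of 1 table. The leptotene/zygotene and pachytene tables are called by their labels only. Depth is unknown.

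Because a condition is 1 library, no value has a replicate error. The q-values are those of Cuffdiff, adjusted over the whole table, and they compare 2 libraries rather than 2 genotypes. An implied error, the ratio of log2 fold to test statistic without its sign, covers the error modelled by Cuffdiff only. A gene is called where its row was tested and q is at most 0.05. Ago4, listed as Eif2c4, had log2 folds of 0.46 (error 0.36, q = 0.420) at day 3, 0.40 (0.31, q = 0.672) in the pre-meiotic table, 0.96 (0.28, q = 0.0385) at leptotene/zygotene and 1.48 (0.29, q = 0.000147) at pachytene in the authors' deposited tables. It was thus called higher in the second condition of the last pair of tables. No genotype was assigned from these values.

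Promoters are shown for the gene that carries a retinoic acid response motif and for 2 of the genes whose folds were called. Of the 10 genes, 8 had an entry in the RefSeq promoter table (GRCm38.p6), with 15 start sites in all. Each sequence is the 250 bases before a start site, 5′ to 3′ on the strand of the gene. Capitals mark a direct repeat of the retinoic acid receptor half-site with a spacer of 5 bases (DR5) in Cyp26a1. They mark the letters TATAAA in Cyp26b1 and CpG dinucleotides in Aldh1a2. Cyp26a1 lies at chr19:37697558-37697807 on the + strand, Cyp26b1 at chr6:84593811-84594060 on the - strand and Aldh1a2 at chr9:71215539-71215788 on the + strand.
Cyp26a1: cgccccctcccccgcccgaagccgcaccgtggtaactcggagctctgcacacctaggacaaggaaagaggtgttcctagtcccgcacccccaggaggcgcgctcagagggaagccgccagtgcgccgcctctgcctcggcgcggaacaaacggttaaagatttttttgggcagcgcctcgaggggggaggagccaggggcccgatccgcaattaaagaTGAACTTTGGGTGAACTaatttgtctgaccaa
Cyp26b1: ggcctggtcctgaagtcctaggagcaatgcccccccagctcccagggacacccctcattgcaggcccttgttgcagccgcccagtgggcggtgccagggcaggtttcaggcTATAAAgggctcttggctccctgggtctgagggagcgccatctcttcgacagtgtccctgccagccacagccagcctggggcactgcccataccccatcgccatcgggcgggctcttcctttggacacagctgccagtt
Aldh1a2: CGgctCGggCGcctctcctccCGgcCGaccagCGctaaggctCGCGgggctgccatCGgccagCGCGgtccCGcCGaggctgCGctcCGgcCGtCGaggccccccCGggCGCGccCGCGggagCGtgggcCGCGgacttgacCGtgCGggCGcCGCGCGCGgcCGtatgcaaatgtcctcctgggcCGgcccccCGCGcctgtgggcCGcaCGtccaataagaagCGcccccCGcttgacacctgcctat

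The repeat of Cyp26a1 reads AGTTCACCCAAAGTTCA on the opposite strand and lies 32 to 16 bases before the start. Half-sites were searched on both strands. Besides the common AGGTCA, the letters AGTTCA were accepted, and so was the form GGGTCA, and likewise the form GGTTCA. Such a DR5 occurred in 29 of 32841 windows of this length, or 0.0883%. None of the other 14 windows of these genes held one, and none held a repeat with a spacer of 2 bases (0.174% of all windows) or of 1 base (0.164%). The letters TATAAA of Cyp26b1 lie 139 to 134 bases before the start. Of all windows, 12.4% hold these letters at any position on either strand. The Aldh1a2 window holds 40 CpG, more than 98.7% of all windows, against 20 for Cyp26a1 and 7 for Cyp26b1. A match describes letters and is not evidence of binding.

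At day 3, the uptake gene Stra6 and the breakdown gene Cyp26b1 fell in the second condition, and in the pre-meiotic table the synthesis gene Aldh1a2 fell. No member was called in the leptotene/zygotene or the pachytene table. By q in the authors' deposited tables, 2 of 10 tested members were called at day 3, both lower, where 14.8% of all tested genes were called. Of 10 tested members, 1 was called in the pre-meiotic table, lower, against 1.15% of all. At leptotene/zygotene 0 of 8 were called by Cuffdiff (2.14% of all) and at pachytene 0 of 9 (1.63%), and 2 and 1 members there had an unadjusted p under 0.05. The day 3 share lies near the background of its table.

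Counted by size, members with a log2 fold of at least 1 in either direction were 1 of 10 at day 3 (20.4% of all tested genes), 0 of 10 in the pre-meiotic table (15.4%), 1 of 8 at leptotene/zygotene (20.4%) and 1 of 9 at pachytene (21.6%). The shares over all tested genes include infinite folds, which no tested member had, so shares of finite folds alone would be smaller. At day 3, 22590 of 24020 tested genes had a finite fold. The member counted was Cyp26a1 at day 3 and Cyp26b1 at leptotene/zygotene and pachytene, each higher in the second condition and none of them called by q. The median log2 fold of the tested members was 0.14 at day 3, -0.03 in the pre-meiotic table, 0.23 at leptotene/zygotene and 0.09 at pachytene. Over all tested genes with a finite fold it was 0.03, 0.00, -0.07 and 0.03 in the same order.

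**Figure D1:**
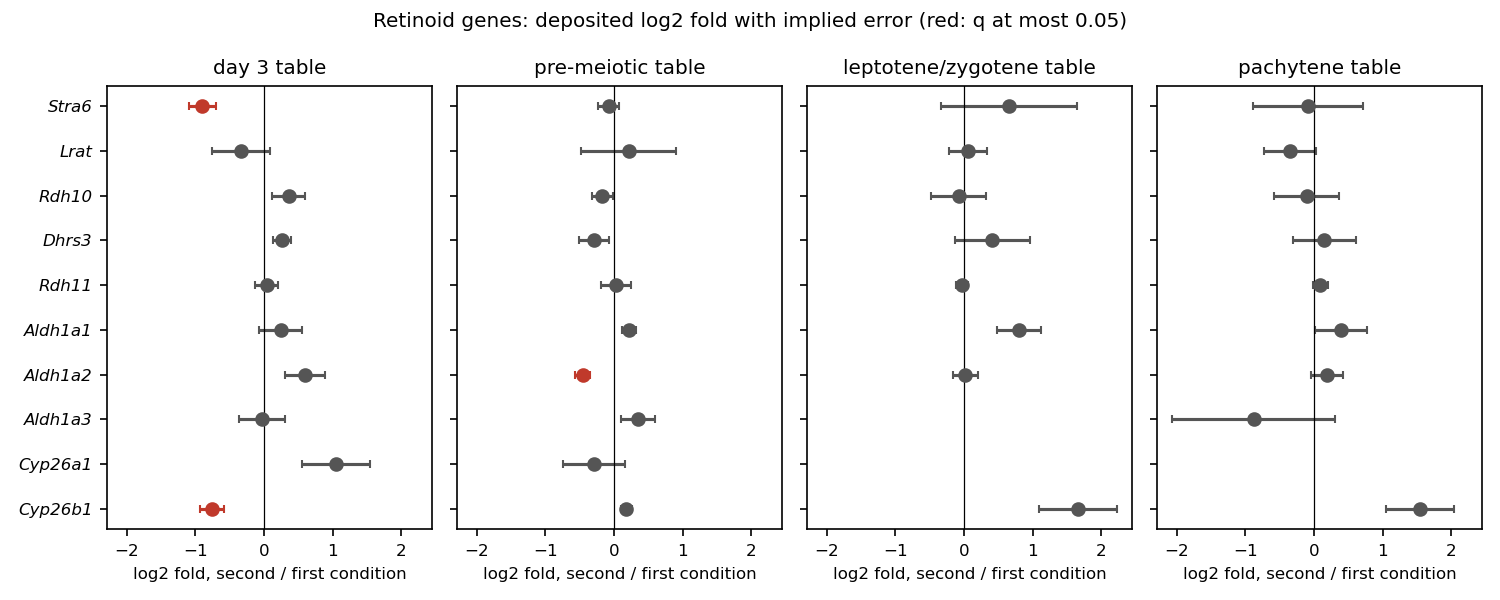
Points show the deposited log2 fold of each gene (rows), second condition over first (horizontal axis), in the 4 tables, bars show the implied error, and red marks q at most 0.05. Red points are Stra6 (-0.90) and Cyp26b1 (-0.76) at day 3 and Aldh1a2 (-0.46) in the pre-meiotic table, and untested rows are not drawn.

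Stra6, the membrane receptor that takes retinol from its carrier RBP4, had the lowest fold of any member at day 3. The authors' deposited table gave a log2 fold of -0.90 with an implied error of 0.20 (q = 0.000130), which is 0.54 times the first condition. In the pre-meiotic table the log2 fold was -0.08 (error 0.15, q = 0.904), per the authors' deposited table. The other folds were imprecise, at 0.66 (error 0.99) for leptotene/zygotene and -0.09 (error 0.80) for pachytene in the authors' deposited tables. The tables list Stra6 under 1 locus (chromosome 9, 57876483 to 58001803) together with Ccdc33, Gm16130 and Gm16131. No step that keeps strand is named, so reads of overlapping genes cannot be told apart. At day 3 the authors' deposited table gave Ccdc33 a log2 fold of 0.19 with a wide error of 1.5 (q = 0.953), and Gm16130 was listed at -0.64 without a test. The part of these genes in the Stra6 fold was not tested.

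Lrat, which makes the retinyl esters that store vitamin A, was called in no table. Its log2 folds in the authors' deposited tables were -0.34 (error 0.42) at day 3, 0.21 (0.69) in the pre-meiotic table, 0.06 (0.28) at leptotene/zygotene and -0.35 (0.38) at pachytene, each smaller than its error. Lrat shares its listed locus (chromosome 3, 82680626 to 82747560) with 4930564K09Rik, so the same limit applies.

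Among the genes that pass retinol and retinal back and forth, none was called. Rdh10, the main retinol dehydrogenase of the mouse embryo, had log2 folds of 0.36 (error 0.24) at day 3, -0.17 (0.15) in the pre-meiotic table, -0.08 (0.40) at leptotene/zygotene and -0.11 (0.47) at pachytene in the authors' deposited tables. Dhrs3, a retinal reductase that retinoic acid induces in many tissues, had 0.26 (error 0.13, q = 0.154) at day 3 and -0.29 (0.22, q = 0.674) in the pre-meiotic table, and 0.41 (0.55) and 0.15 (0.46) at leptotene/zygotene and pachytene, per the authors' deposited tables. Rdh11, another retinal reductase, had the smallest range of folds of any member, with log2 folds of 0.04, 0.03, -0.03 and 0.09 in the order day 3, pre-meiotic, leptotene/zygotene and pachytene of the authors' deposited tables. Its implied errors of 0.09 and 0.11 at leptotene/zygotene and pachytene were below those of Rdh10 and Dhrs3.

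Of the 3 synthesis genes only Aldh1a2 was called, in 1 table, and differences between them were not tested. Aldh1a1, a retinal dehydrogenase known from Sertoli and Leydig cells, was higher in the second condition of all 4 tables and called in none. The authors' deposited tables gave it log2 folds of 0.24 (error 0.31, q = 0.661) at day 3, 0.22 (0.10, q = 0.375) in the pre-meiotic table, 0.80 (0.32, q = 0.228) at leptotene/zygotene and 0.39 (0.38, q = 0.763) at pachytene. Its near copy Aldh1a7, which could share reads with it, had 0.06, 0.12, -1.14 and -0.43 in the same order of the authors' deposited tables.

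Aldh1a2, known as the retinal dehydrogenase of germ cells in the mouse testis, fell in the second condition of the pre-meiotic table. The authors' deposited table gave a log2 fold of -0.46 with an error of 0.11 (q = 0.00993), or 0.73 times the first condition. At day 3 it lay on the other side of 0, at 0.60 (error 0.29, q = 0.151), and it was near 0 at leptotene/zygotene (0.02, error 0.18) and pachytene (0.19, error 0.23) in the authors' deposited tables. Its locus is chromosome 9, 71063595 to 71144050. In the pre-meiotic table, 6 of 8 leptotene and zygotene marker genes were also called lower (1.15% of all tested genes were called there), with a median log2 fold of -0.90 over the 8. Sycp3 of the synaptonemal complex had -0.89 (error 0.12, q = 1.21e-10) and the recombinase gene Dmc1 -0.90 (error 0.15, q = 1.34e-06) in the authors' deposited table. Spermatogonia markers had a median of 0.05 there, with 1 of 7 called (Stra8, lower), and Sertoli markers 0.07, with 1 of 11 called (Amh, higher). Blood and leukocyte markers had a median of 0.62, with 4 of 8 called higher, and stroma markers 0.33, with 3 of 6 called higher. No myoid, endothelial, Leydig, pachytene or spermatid marker was called in that table. In bulk RNA, fewer cells of a type and less RNA per cell cannot be told apart. The part of all these cell types in the Aldh1a2 fold was not tested.

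Aldh1a3, the remaining enzyme of the family, had log2 folds of -0.03 (error 0.33) at day 3, 0.35 (0.25) in the pre-meiotic table and -0.88 (1.19) at pachytene in the authors' deposited tables, none called. Its leptotene/zygotene row was listed but not tested by the authors.

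Of the breakdown genes, Cyp26b1 was called at day 3 and Cyp26a1 was not, and the difference between them was not tested. Cyp26a1, a gene that retinoic acid induces directly, had a log2 fold of 1.05 (error 0.50, q = 0.146) there, and -0.29 (error 0.45, q = 0.881) in the pre-meiotic table of the authors' deposited tables. It was not tested by the authors at leptotene/zygotene or pachytene. Cyp26b1, which keeps retinoic acid away from germ cells in the fetal mouse testis, fell at day 3 with a log2 fold of -0.76 (error 0.18, q = 0.000376), or 0.59 times the first condition, in the authors' deposited table. In the pre-meiotic table it had 0.18 (error 0.08, q = 0.345), per the authors' deposited table.

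At leptotene/zygotene and pachytene Cyp26b1 lay on the other side of 0. Its log2 folds were 1.66 (error 0.57, q = 0.105) at leptotene/zygotene and 1.54 (error 0.50, q = 0.0881) at pachytene in the authors' deposited tables, or 3.17 and 2.92 times the first condition. Neither was called at q of 0.05. Cyp26b1 is listed at chromosome 6, 84521937 to 84543740.

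Beside this, markers of some cell types outside the germline were called higher in these tables, and Sertoli and Leydig markers were not. Over all tested genes, 2.14% and 1.63% were called. Of 6 peritubular myoid and smooth muscle genes, 5 were called at leptotene/zygotene and 3 at pachytene, all higher, with median log2 folds of 2.14 and 1.01. Acta2, a smooth muscle actin, had 2.17 (error 0.34, q = 1.78e-07) and 1.49 (error 0.41, q = 0.0261) in these authors' deposited tables. Of 6 stroma genes 2 were called higher in each of these tables (medians 1.46 and 1.40), of 6 endothelial genes 1 and 3 (medians 1.16 and 1.76), and of 8 blood and leukocyte genes 5 and 1 (medians 2.92 and 1.80). The last were the globin genes Hbb-b1, Hbb-b2, Hba-a1 and Hba-a2 with H2-Ab1 at leptotene/zygotene, and H2-Ab1 alone at pachytene. The leukocyte genes Ptprc (0.46 and 0.25), Csf1r (-0.11 and -1.06) and Cd68 (infinite and 1.11) were called in neither of the authors' deposited tables. No Sertoli or Leydig marker was called in either table, with medians of -0.55 and 0.12 for Sertoli and -0.17 and -0.22 for Leydig markers. No listed germ cell marker was called higher in either table. Piwil1 and Spaca1 were called lower at leptotene/zygotene, and Sycp1 and Sycp2 at pachytene. The part of these cell types in the Cyp26b1 folds was not tested.

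At day 3 the stroma and endothelial medians were -0.40 and -0.48, on the side of Cyp26b1 and Stra6, with 1 and 2 of 6 called, all lower, in a table where 14.8% of all tested genes were called. Lower medians were seen for leptotene and zygotene markers (-0.71, 3 of 8 called lower), pachytene markers (-0.74, 1 of 6 called lower) and spermatid markers (-0.77, 0 of 7 called by Cuffdiff). Leydig markers had -0.23, with 2 of 9 called lower and 1 higher. The myoid median was 0.23, with 1 of 6 called higher (Des) and 1 lower (Myh11). The blood median was 0.27, with 2 of 8 called higher. The pachytene and spermatid medians rest on 5 finite folds each, and the spermatid errors ran from 0.36 to 1.25. Spermatogonia markers had a median of -0.40, and Sertoli markers 0.04, with 1 of 11 called lower. The negative medians were thus not particular to stroma and endothelium. Of 7 spermatogonia markers 3 were called lower at day 3, among them Gfra1 with -1.46 (error 0.23, q = 1.02e-08) in the authors' deposited table. The part of these cell types in the folds of Cyp26b1 and Stra6 was not tested.

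**Figure D2:**
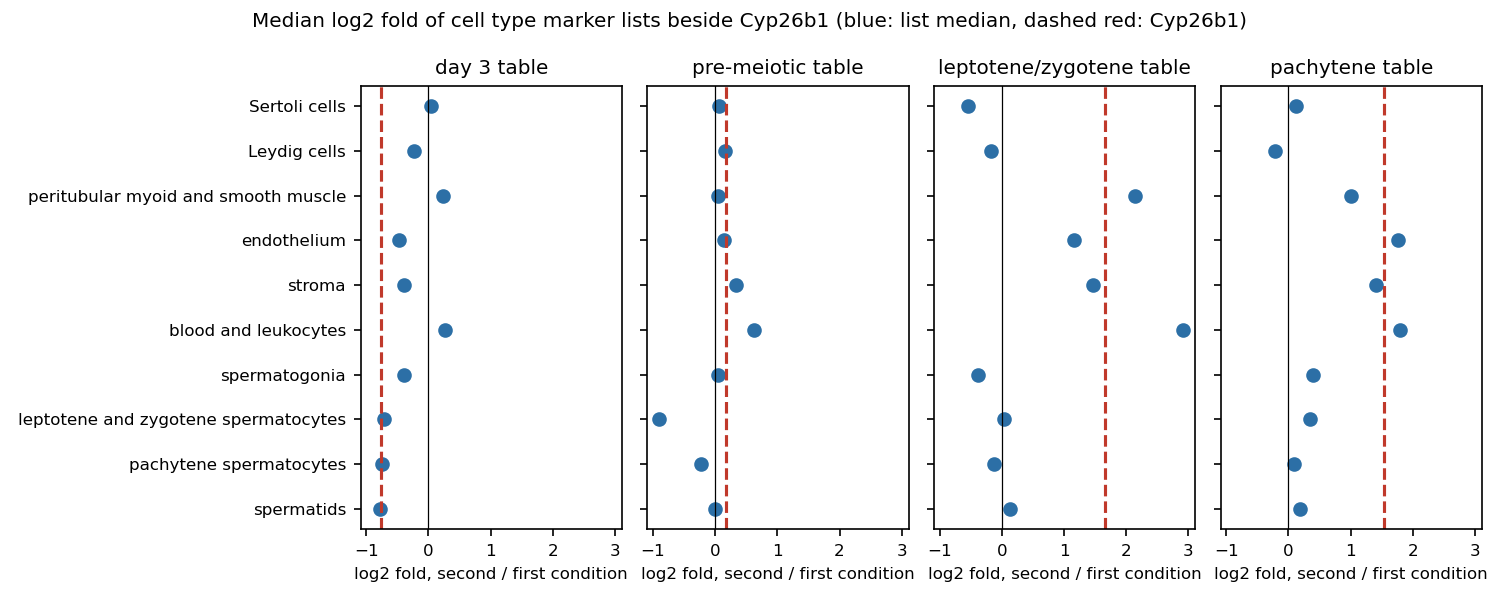
Blue points show the median log2 fold of each cell type marker list (rows), second condition over first (horizontal axis), in the 4 tables, and the dashed red line shows Cyp26b1. Myoid, endothelial, stroma and blood medians lie between 1.01 and 2.92 at leptotene/zygotene and pachytene, on the side of Cyp26b1 (1.66 and 1.54).

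Other genes of the pathway were taken from 3 lists with 53 genes, all found in the tables. Medians leave out infinite folds. Of 22 further retinol and retinal dehydrogenases and reductases, 21 were tested at day 3 and 2 called, both higher, below the 14.8% of all tested genes. In the other tables, 14 were tested in each and 0 called by Cuffdiff, where the share over all genes was 1.15%, 2.14% and 1.63%. They were the alcohol dehydrogenase gene Adh1, with a log2 fold of 0.80 (error 0.14, q = 6.68e-07), and the aldo-keto reductase gene Akr1b10, with 0.45 (error 0.15, q = 0.0209), in the authors' deposited table. At day 3, 18 of 21 tested genes of the list lay above 0, and the share of all tested genes above 0 was not counted. The list median there was 0.47, against 0.03 over all tested genes with a finite fold. In the other tables it was 0.10, -0.01 and 0.32.

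Of 17 genes for retinoid transport, esterification, hydrolysis and cleavage, 3 of 13 tested were called at day 3 (14.8% of all genes), 2 of 11 in the pre-meiotic table (1.15%), 1 of 11 at leptotene/zygotene (2.14%) and 0 of 15 by Cuffdiff at pachytene (1.63%). At day 3 the acyltransferase gene Dgat1 rose (log2 fold 0.48, error 0.13, q = 0.00352), as did the lipase gene Lpl (0.66, error 0.24, q = 0.0410), while the endocytic receptor gene Lrp2 fell (-1.20, error 0.40, q = 0.0230), per the authors' deposited table. In the pre-meiotic table of the authors' deposited tables Lpl fell (-1.40, error 0.15, q listed as 0). Lipe, the hormone-sensitive lipase, rose at leptotene/zygotene (0.34, error 0.10, q = 0.0392) in the authors' deposited table. Medians of this list were 0.07 at day 3, -0.04 in the pre-meiotic table, -0.14 at leptotene/zygotene and 0.23 at pachytene.

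Of 14 genes for retinoic acid binding, receptors and targets, 2 of 13 tested were called at day 3 (14.8% of all genes), 1 of 13 in the pre-meiotic table (1.15%), 0 of 11 by Cuffdiff at leptotene/zygotene (2.14%) and 1 of 14 at pachytene (1.63%). All calls were lower, as were 2395 of the 3547 genes called at day 3, and the day 3 share is close to that of all genes. The list as a whole was less one-sided, and some of its tested genes lay above 0 in each table. Its median was -0.11 at day 3, -0.02 in the pre-meiotic table, -0.49 at leptotene/zygotene and 0.19 at pachytene. Over all tested genes with a finite fold it was 0.03, 0.00, -0.07 and 0.03. The nuclear receptor gene Rxra fell at day 3 (-0.91, error 0.23, q = 0.00103) and at pachytene (-1.40, error 0.38, q = 0.0199) in the authors' deposited tables. Kit, a receptor of differentiating spermatogonia, fell at day 3 (-1.21, error 0.28, q = 0.000427), per the authors' deposited table. Stra8, a retinoic acid target needed for meiosis, fell in the pre-meiotic table (-0.66, error 0.09, q = 8.29e-10), per the authors' deposited table. Kit and Stra8 are also on the list of spermatogonia markers, so their calls are counted in both lists. Aldh1a2 and Stra8 were thus both lower in the second condition of the pre-meiotic table, beside the leptotene and zygotene markers given above.

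**Figure D3:**
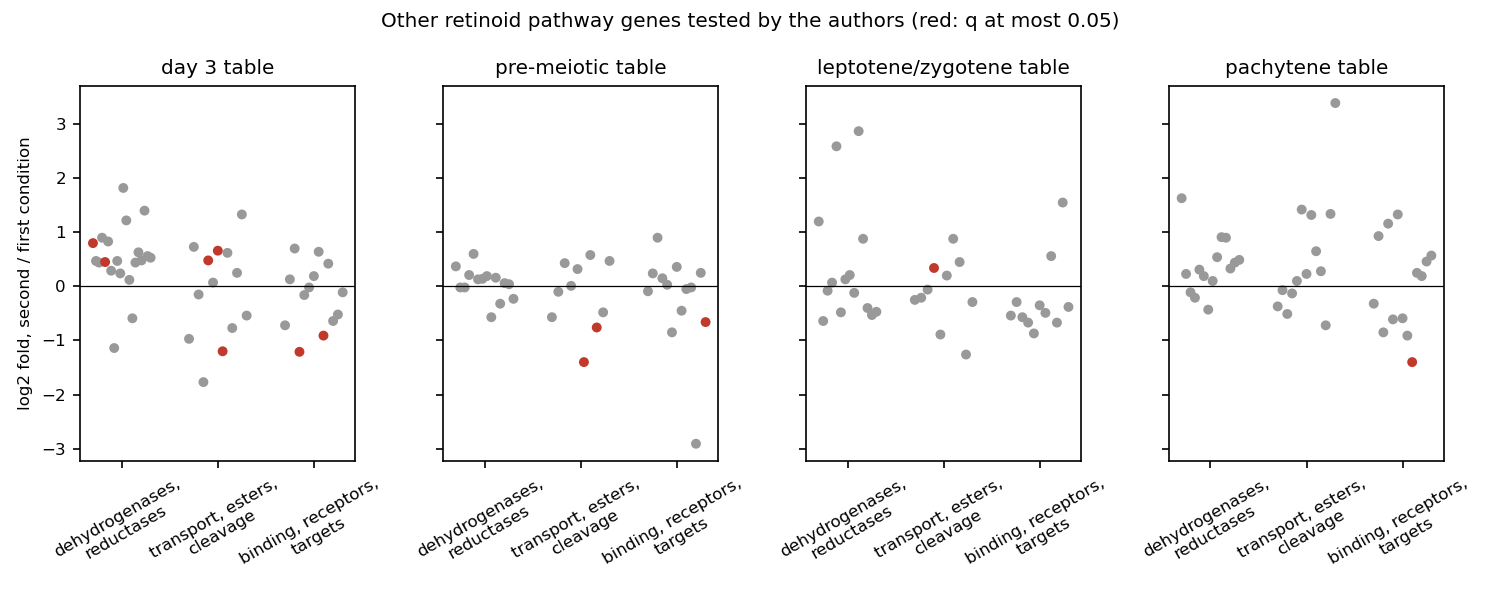
Each point is 1 tested pathway gene outside the 10 with a finite fold, placed by list (horizontal axis) and deposited log2 fold, second condition over first (vertical axis), in the 4 tables, with q at most 0.05 in red. Red points of the binding, receptor and target list all lie below 0, with Kit (-1.21) and Rxra (-0.91) at day 3. The other points of that list lie on both sides of 0 in each table.

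The implied error of a tested member ran between 0.13 and 0.50 at day 3 and 0.08 and 0.69 in the pre-meiotic table, against 0.09 to 0.99 at leptotene/zygotene and 0.11 to 1.19 at pachytene. Over all tested genes the middle value was 0.31, 0.25, 0.41 and 0.46 in that order. Single members departed from this order, such as Rdh11, with 0.09 at leptotene/zygotene and 0.17 at day 3.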

How the data were processed

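The tables hold the authors' own comparisons. The log2 fold, test statistic, q-value and p-value of each gene are the authors' values, per the file headers, and were copied without refitting. Cuffdiff, Cufflinks 1.1.0, Bowtie 0.12.7 and TopHat 1.3.0 appear in the submitters' processing notes, without a genome build. The 8 columns of FPKM match no library. They were inspected, then set aside, and no value rests on them. The planned analysis assumed them, so its levels, pseudocounts, floors, similar genes and genes of highest level were dropped, and the 2-fold count uses the deposited fold. Locus positions are copied from the tables, whose counting base is not stated. All 10 starts lie over 1000 bases from GRCm38.p6, so promoters were matched by symbol.

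Error, counts and medians were computed with Python 3.11.15, numpy 2.4.6 and pandas 2.3.3. The 2-fold rule was run on simulated folds far above its limit, which says little of folds near it. The simulated error was recovered by construction, and the q rule was not simulated. Gene IDs were matched to current symbols for 31840 rows. Pathway genes are named where called, except 1 that is not reported here, and marker genes as examples chosen after their values were seen. The 10 genes and all lists were chosen with earlier results of these data known. Other q and fold limits were tried as alternatives. Separate animals are not stated for any group.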

Additional observations from a re-analysis of the deposited data

Results flagged for a closer look

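Cyp26b1 lay on opposite sides of 0 in different tables. Its log2 fold was -0.76 at day 3, where q called it lower in the second condition, and 1.66 at leptotene/zygotene and 1.54 at pachytene, where it was over 2-fold higher and not called. The difference between tables was not tested, and no source used here says that the conditions stand in the same order in each.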

How the results depend on the processing

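With a fold limit of 1.5, the members counted as apart were 4 at day 3, 3 at leptotene/zygotene and 2 at pachytene. With q at most 0.10, 1 member was called at pachytene. The other 12 of 16 recomputed counts stayed within 1.5 times, among them those after centring each table on its median fold, an alternative chosen after seeing the data. Some of the 12 were 0 under both settings, such as the 2-fold counts of the pre-meiotic table. Centring moved each of the 37 tested member folds by no more than its implied error. Alternatives that need FPKM (pseudocounts and floors) were not run. No paired analysis was possible because each condition is 1 library, and no replicate could be left out. The spread between animals is unknown.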
